A study of Mus musculus with 12 samples.

Results

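Intronic CpGs outside promoters were followed in mouse B cells that had been sorted into fractions by their count of divisions. The members were the CpGs that the deposited annotation (mm9) placed in an intron and in no promoter, exon or untranslated region. They numbered 231394 of the 760348 CpGs read at least 10 times in every library, or 30.4%, and lay in 13487 genes with a symbol. By distance to the nearest start site, 89214 lay under 5 kb away, 58936 lay 5 to 20 kb away and 83244 lay over 20 kb away. The nearest start site was that of the same gene for 187593 members, that of another gene for 26901 and one without a gene identifier for 13893.

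Naive splenic B cells (B220+ CD43-) carried CFSE or CTV, dyes that are diluted at each division. They were transferred into 2 uMT hosts, mice that lack mature B cells of their own, and lipopolysaccharide (LPS), a mitogen from the bacterial outer membrane, was given the next day. The spleen of each host was sorted into 6 fractions on day 3 of LPS. Div0 had not divided, and Div1, Div3 and Div5 had divided 1, 3 and 5 times. Both remaining fractions had divided at least 8 times and were split by CD138, a surface marker of antibody-secreting cells, which Div8neg lacked and Div8pos carried. The division count of the last 2 fractions has no upper limit. All 12 samples are labelled female, 8 weeks old and B6.SJL-Ptprca Pepcb/BoyJ, whereas the design text names C57/BL6J donors, and which animals the label describes was not stated. Transfer, LPS and the uMT host were common to every fraction, so no fraction stands for B cells without them. Each fraction has 2 libraries, 1 from host 196 and 1 from host 197. The spread between those animals enters all tests except Fisher's exact test within 1 host. In the test of single CpGs it enters only as a value shared by all CpGs.

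Methylation of cytosine at CpGs is copied to the new strand after each round of DNA replication by the maintenance enzyme Dnmt1, guided by Uhrf1. Where copying fails or is blocked, methylation is diluted by division, and the Tet enzymes can also start its removal. The bodies of most genes are highly methylated, apart from CpG-dense stretches at start sites. Introns also hold many enhancers, whose methylation is often low in the cell types that use them. Reduced representation bisulfite sequencing reads CpG-rich restriction fragments, so the CpGs described are a sample of intronic sequence and not all of it.

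Over the intronic CpGs, reads summed to between 5135214 and 16136115 per library. Median coverage was 20 to 53 reads in host 196 and 39 to 64 in host 197, and host 197 was the deeper in every fraction. The promoter class of the table was less inclusive than its description, which runs from 2500 bp upstream to 500 bp downstream of a start site. By the distances in the table, 34757 members lay inside those bounds, and they were 7.83% methylated at Div0. The other 196637 members were 74.1% methylated at Div0. Values for the members under 5 kb are therefore also given without those at a start site.

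Intronic methylation differed little from Div0 through the first 5 divisions, and most of the difference stood at 8 or more divisions. In host 196 the mean level was 64.3, 64.0, 63.9, 63.3, 60.7 and 56.9% from Div0 through Div1, Div3 and Div5 to Div8neg and then Div8pos. In host 197 it was 64.0, 63.8, 63.5, 62.9, 60.5 and 56.3% in the same order. The levels of Div8neg and Div8pos lay below those of all earlier fractions in both hosts and did not overlap. Within hosts, Div5 stood -0.991 points from Div0 (SD 0.0691, n = 2 hosts). The distance was -3.55 points for Div8neg (SD 0.0623) and -7.52 for Div8pos (SD 0.197), and from Div8neg to Div8pos it was -3.97 points (SD 0.260). Each of these differences exceeded the spread between hosts. A lower mean level can come from fewer methylated copies in every cell or from a larger share of cells with low methylation, and these cannot be told apart in sorted bulk cells.

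The weight given to deep CpGs moved the early values. When reads were summed instead of averaging CpG levels, the fractions stood -2.33, -2.56 and -2.23 points from Div0 at Div1, Div3 and Div5, and -6.09 and -9.15 points at Div8neg and Div8pos. At Div1 the mean over CpGs differed from Div0 by only -0.237 points (SD 0.0522). The order of Div1, Div3 and Div5 thus depended on the weighting, while Div8neg and Div8pos stood lower under both.

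**Figure D1:**
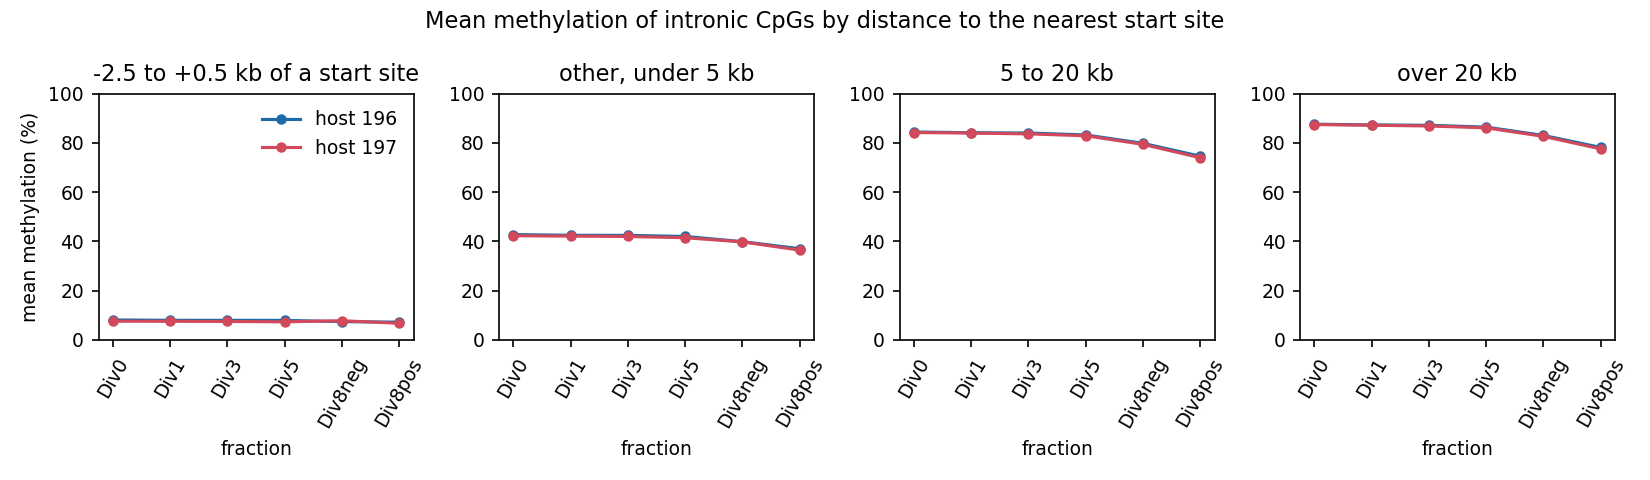
Mean methylation (%, vertical axis) of intronic CpGs in each of the 6 fractions (horizontal axis), in 4 groups by position, with 1 point per library and 1 line per host. Members over 20 kb from a start site went from 87.5% at Div0 to 77.8% at Div8pos, and members at a start site from 7.83% to 6.96%.

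The level at which the members began differed by distance to the start site. At Div0 the mean was 29.0% under 5 kb, 84.3% from 5 to 20 kb and 87.5% over 20 kb. At Div8pos these means were 25.1, 74.2 and 77.8%, which is a difference of -3.87 points (SD 0.0308), -10.03 (SD 0.288) and -9.65 (SD 0.312). Without the members at a start site, those under 5 kb went from 42.5 to 36.7%. The smaller difference near start sites came with the large share of members there that were already low. In the group under 5 kb, 67.5% of members had under 20% methylation at Div0, against 7.79% from 5 to 20 kb and 4.73% over 20 kb.

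The difference did not take the form of many CpGs becoming unmethylated. Members with at least 80% methylation made up 60.3% of intronic CpGs in Div0, 59.0% in Div5, 53.95% in Div8neg and 45.7% in Div8pos. Members between 20 and 80% went from 9.94% to 23.3% between Div0 and Div8pos. Members under 20% went only from 29.7 to 31.0%. The CpGs that left the high class thus mostly stood at an intermediate level in Div8pos.

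Members were next placed in a class by their Div0 level in 1 host and followed in the other host, so that the counting error of the followed library did not enter the choice. Members with at least 80% methylation stood -0.299, -0.544 and -1.27 points from Div0 in Div1, Div3 and Div5. In Div8neg they stood -5.08 points from it (SD 0.287) and in Div8pos -10.3 (SD 0.331). Members from 20 to 80% differed by -5.91 points at Div8neg (SD 0.281) and -11.7 at Div8pos (SD 0.0745). Members under 20% differed by -0.429 points at Div8pos (SD 0.0928). At Div8neg the members under 20% gave -0.203 points in host 196 and 0.871 in host 197, so the hosts went in opposite directions.

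Once starting level was held, distance made a small difference. Members with at least 80% methylation differed between Div0 and Div8pos by -11.4 points under 5 kb (SD 0.389), -10.5 from 5 to 20 kb (SD 0.350) and -9.85 over 20 kb (SD 0.2997). In finer steps the largest difference stood from 1 to 2.5 kb, at -12.2 points (SD 0.305). It was -10.1 within 0.5 kb, where only 3.63% of members had so high a level, and -9.15 beyond 100 kb. In each host the value from 1 to 2.5 kb was the lowest of the 9 steps at Div8pos and at Div8neg. Position along the transcript mattered little, from -10.5 points in the 5' part to -9.76 in the 3' part of transcripts cut into 5 equal lengths, for members over 5 kb from a start site. On the X chromosome, of which female cells silence a copy, highly methylated members differed by -8.96 points (SD 0.397), against -10.3 on the autosomes (SD 0.331).

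**Figure D2:**
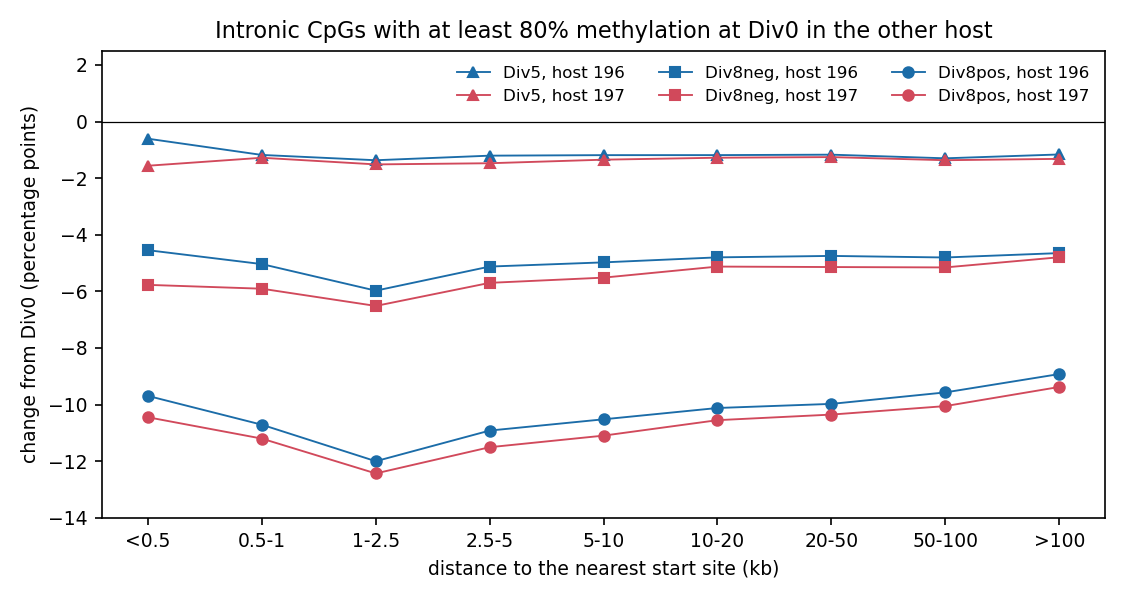
Difference from Div0 (percentage points, vertical axis) of intronic CpGs with at least 80% methylation at Div0 in the other host, by distance to the nearest start site (kb, horizontal axis). Triangles are Div5, squares Div8neg and circles Div8pos, with 1 line per host, and Div8pos runs from -12.2 at 1 to 2.5 kb to -9.15 beyond 100 kb as the mean of both hosts.

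Local CpG density gave a wider range of values than distance. Highly methylated members with 0 to 2 other covered CpGs within 250 bp differed between Div0 and Div8pos by -11.5 points (SD 0.342). The difference was -9.29 points with 3 to 5 such neighbours (SD 0.305), -7.43 with 6 to 9 (SD 0.375) and -6.87 with 10 to 19 (SD 0.310). The same order stood within each distance group, for instance from -11.1 to -5.57 points over 20 kb. Exonic CpGs outside promoters, placed in the same classes, differed by -9.05, -7.33, -6.47 and -5.31 points at the same 4 densities. Introns thus stood below exons at every one of these densities in both hosts. With 20 or more neighbours only 41 and 40 highly methylated members could be followed in hosts 196 and 197. There introns differed by -2.69 and -4.21 points in hosts 196 and 197 and exons by -4.11 and -3.30, so the hosts gave opposite orders. Only covered CpGs were counted, so density here also reflects which fragments the method reads.

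**Figure D3:**
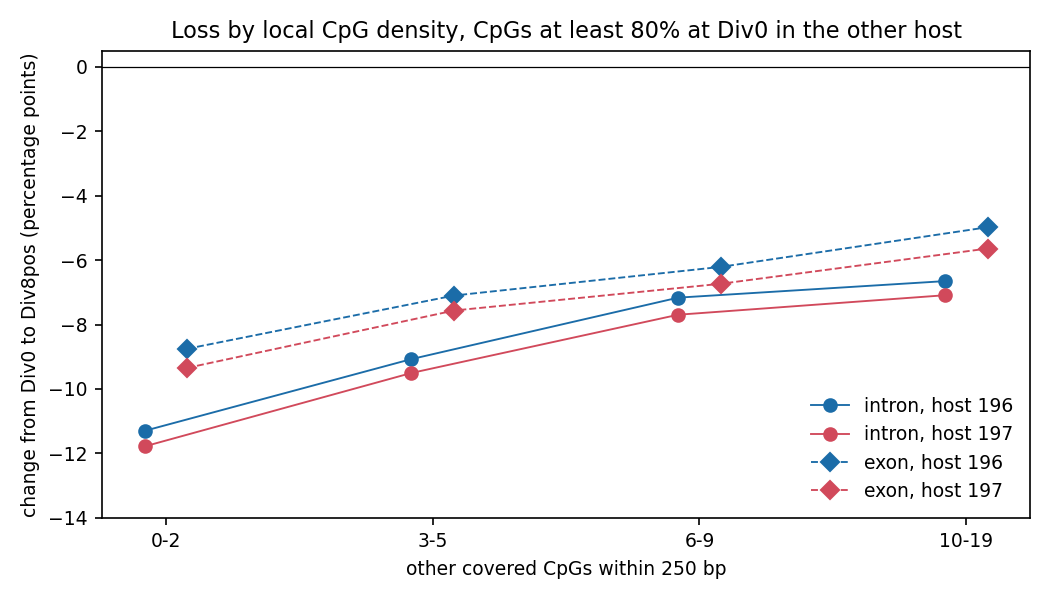
Difference between Div0 and Div8pos (percentage points, vertical axis) by the number of other covered CpGs within 250 bp (horizontal axis), for CpGs with at least 80% methylation at Div0 in the other host. Circles are intronic and diamonds exonic CpGs, blue is host 196 and red host 197, and intronic values go from -11.5 to -6.87 while exonic values go from -9.05 to -5.31 as means of both hosts.

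Against other annotation classes at the same starting level, introns lay below exons, untranslated regions and intergenic sequence and close to promoters. CpGs with at least 80% methylation at Div0 differed at Div8pos by -7.28 points in exons (SD 0.371) and -9.13 in untranslated regions (SD 0.207). The difference was -9.53 in intergenic sequence (SD 0.430), -10.3 in introns and -10.6 in promoters (SD 0.353). Introns, at -10.1 and -10.6 in hosts 196 and 197, overlapped promoters, at -10.4 and -10.9. The gap to exons was the widest and exceeded the spread between hosts. The comparison with exons was repeated within genes, over 892 genes whose introns and exons both had a mean of at least 80% at Div0. At Div8pos their introns differed from Div0 by -10.3 and -10.99 points in hosts 196 and 197, and their exons by -6.95 and -7.51. The gap of -3.44 points (SD 0.0632) stood in both hosts, and introns were the lower in both hosts for 573 genes against 97 for exons. At Div5 the same gap was already -0.575 points (SD 0.00957).

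Single CpGs were tested with a logistic model of methylated and unmethylated reads. The spread between hosts enters it as a dispersion over binomial error that is shared by all CpGs, not as the spread at each CpG. Lower and higher stand for CpGs whose quasi-binomial p, adjusted over all CpGs by Benjamini-Hochberg, was under 0.05 and whose levels differed by at least 20 points. No member passed at Div1 by this test, although 12867 had an unadjusted p under 0.05, and the test with a separate dispersion for each CpG gave 0 as well, with 2545 unadjusted. At Div3, 112 members were lower and 3 higher, where 0.027% of all CpGs were lower and 0.00118% higher. At Div5, 483 were lower and 20 higher, where 0.123% of all CpGs were lower and 0.00552% higher. At Div8neg, 2721 were lower (1.18% of members) and 127 higher, where 0.781% of all CpGs were lower and 0.0397% higher. At Div8pos, 19895 were lower (8.60% of members) and 69 higher, where 6.61% of all CpGs were lower and 0.0271% higher. With residual degrees of freedom counted over all fractions, the count first planned, 22, 223, 1023 and 18055 members were lower at Div3, Div5, Div8neg and Div8pos and 0, 1, 32 and 44 higher.

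Since a CpG under 20% cannot fall by 20 points, shares were also taken among CpGs above that level at Div0. At Div8pos, 12.3% of such intronic CpGs were lower, against 12.97% in promoters and 10.8% of all CpGs. The share was 5.66% in exons, 8.97% in untranslated regions and 10.8% in intergenic sequence. Within introns the share was 14.6% under 5 kb, 12.8% from 5 to 20 kb and 11.1% over 20 kb. Directly between the fractions with 8 or more divisions, 2107 members were lower in Div8pos and 20 higher, where 0.636% of all CpGs were lower and 0.00697% higher. Without the Div0 library of host 197, 20, 165, 500 and 6093 members were lower at Div3, Div5, Div8neg and Div8pos. The lower counts were 71 and 54 at Div3 without the Div3 libraries of hosts 196 and 197, 130 at Div5 without its library of host 197, and 875 at Div8neg without its library of host 197. Between Div8pos and Div8neg they were 1044 and 365 without the Div8neg libraries of hosts 196 and 197, and 502 without the Div8pos library of host 197. With a separate dispersion for each CpG 0 passed in any comparison, although 51807 had an unadjusted p under 0.05 at Div8pos.

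The 19895 members lower at Div8pos averaged 87.9, 85.3, 83.98, 81.2, 73.7 and 57.1% over the 6 fractions in the order given above. Of these, 81.6% began at 80% or more. Their level at Div8pos was 50 to 80% for 72.9%, 20 to 50% for 19.4% and under 20% for 7.60%, or 1513 CpGs. The direction was the same in both hosts for 19870. The set was chosen on the Div0 and Div8pos libraries, so only the 4 fractions between them are free of the choice. Those 4 fractions stood in the order of division in both hosts.

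The 483 members lower at Div5 followed another course. They averaged 75.7, 68.3, 54.2, 34.8, 30.5 and 16.2% over the 6 fractions. The values at Div1, Div3, Div8neg and Div8pos did not enter the choice. In each host the steps from Div1 to Div3 and from Div8neg to Div8pos were downward and larger than the SD between hosts, while the step from Div5 to Div8neg was 36.3 to 30.4% in host 196 and 33.4 to 30.6% in host 197. The members lower in Div8pos than in Div8neg stood at 82.7% at Div0 and still at 77.1% at Div5.

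**Figure D4:**
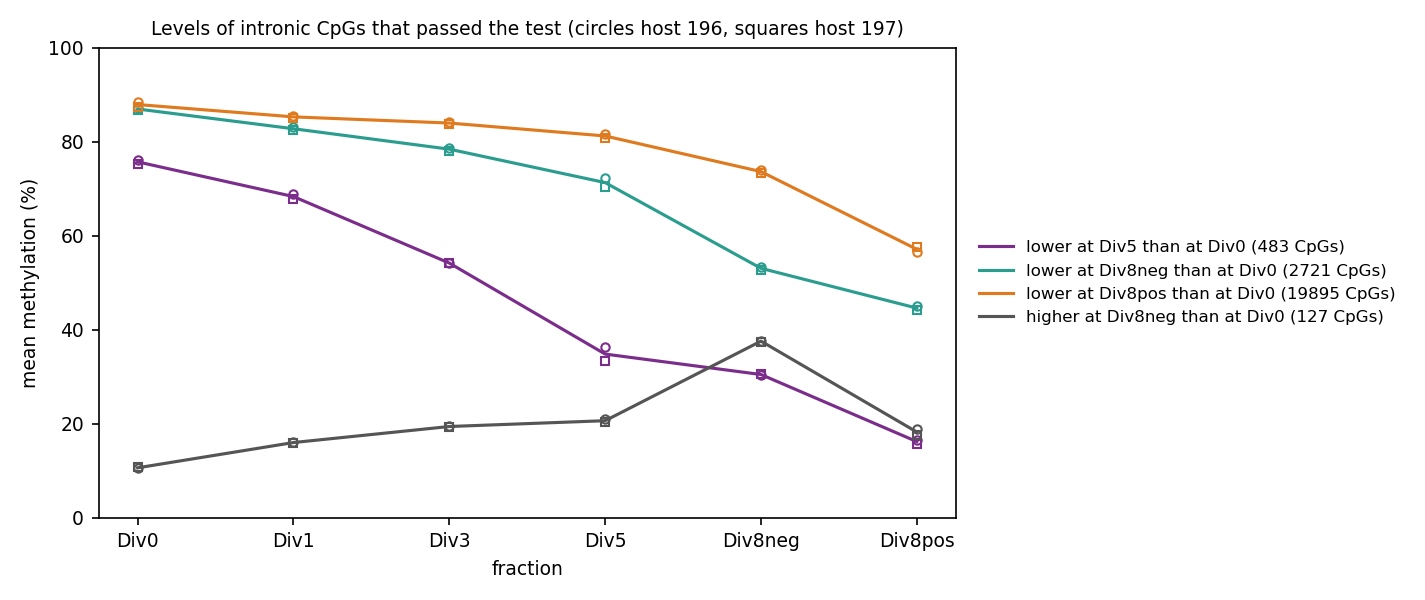
Mean methylation (%, vertical axis) over the 6 fractions (horizontal axis) for the intronic CpGs that were lower at Div5, Div8neg or Div8pos or higher at Div8neg, each against Div0. Lines are means of both hosts, circles host 196 and squares host 197, and the set lower at Div5 stands at 54.2% by Div3 and at 16.2% by Div8pos.

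The size of the difference was checked in libraries that took no part in the choice. In host 196 alone, Fisher's exact test chose 2455 members as lower at Div8pos, with a mean difference of -56.0 points in that host. In host 197 the same CpGs differed by -45.1 points, and 87.0% of them stood at least 20 points lower, against 10.96% of all intronic CpGs there. The deeper host 197 chose 17301 members with a mean of -32.5 points. In host 196 they differed by -25.02 points, and 55.7% stood at least 20 points lower, against 12.98% of all intronic CpGs there. A CpG chosen in 1 animal was thus usually lower in the other, with a smaller mean difference than in the animal that chose it.

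Neighbouring members differed together over short distances. For members that began at 80% or more, the difference at 1 CpG in host 196 and at its neighbour in host 197, and the reverse, correlated at 0.438 for gaps of 1 to 10 bp (15885 neighbour pairs). The correlation was 0.371 for 10 to 50 bp, 0.223 for 100 to 250 bp, 0.168 for 250 to 500 bp and 0.0864 for 1 to 5 kb. CpGs of 1 host within a 50 bp read can share molecules, which the comparison across hosts does not. Where a CpG was lower at Div8pos, the next one 10 to 50 bp away was lower in 34.2% of cases, against 8.90% of all CpGs at such gaps.

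Runs of at least 3 lower members at most 500 bp apart formed 861 regions at Div8pos, 157 at Div8neg and 45 at Div5. Runs were sought among intronic CpGs only, so these counts cannot be set against other annotation classes. The regions lower at Div5 went furthest, with a median level of 76.7% at Div0, 26.1% at Div8neg and 8.07% at Div8pos. Of the 45, 23 lay over 20 kb from a start site. Of the members high enough at Div0 to be called lower, 79304 of 162281 lay that far, a similar share. The regions lower at Div8pos went from a median of 88.8% to 49.7%. Values of single regions below are means over every covered member between the ends, and the regions were chosen by the number of CpGs that passed.

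The regions lower at Div5 lay in introns of genes with varied roles, and those described were picked after their values were seen. The region of Gm14005 (5 CpGs, chromosome 2, 128156896 to 128157117) stood at 80.7 and 84.5% at Div0, 11.8 and 9.18% at Div5 and 0.741 and 1.88% at Div8pos in hosts 196 and 197. At Div8neg it stood at 13.6 and 22.6%, above Div5 in both hosts. Its difference of -72.1 points at Div5 (SD 4.51) was larger than those of the other regions described here. Pvt1, a long noncoding RNA gene next to Myc, held a region of 5 CpGs 29.7 kb from the nearest start site (chromosome 15, 62021271 to 62021350). In host 196 it stood at 95.8, 86.5, 57.1, 39.5 and 5.17% in Div0, Div3, Div5, Div8neg and Div8pos. In host 197 it stood at 93.3, 74.6, 44.3, 24.9 and 3.60% in the same fractions. Both hosts thus showed a step down at every one of these fractions, to nearly no methylation.

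Rassf3, a Ras-association domain family gene, held 2 such regions. In the first (chromosome 10, 120883189 to 120883304, 6 CpGs) the levels at Div0, Div5, Div8neg and Div8pos were 89.1, 59.6, 36.7 and 5.24% in host 196. In host 197 they were 94.8, 51.7, 22.0 and 9.43%. The other lay farther from the start site (chromosome 10, 120872787 to 120872826, 5 CpGs), with means of 68.3% at Div0, 32.6% at Div5 and 12.3% at Div8pos. At Div8pos a wider stretch around it (120872499 to 120872834) held 12 lower CpGs, with a mean of 32.7% against 76.0% at Div0. Across all 85 covered intronic CpGs of Rassf3, 26 were lower at Div8pos and 19 at Div8neg.

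Cdk6, a kinase of the G1 phase, began at an intermediate level. Its region of 6 CpGs (chromosome 5, 3382393 to 3382515) stood at 53.9% in host 196 and 45.5% in host 197 at Div0. It stood at 11.1 and 5.31% at Div5, at 12.8 and 7.22% at Div8neg and at 3.48 and 1.23% at Div8pos. Slc20a2, a phosphate transporter, went the whole way from a high level. Its 5 CpGs (chromosome 8, 23617075 to 23617243) stood at 77.9 and 80.1% at Div0, 44.7 and 41.6% at Div5, 25.6 and 26.4% at Div8neg and 2.28 and 3.61% at Div8pos. At Div3 the hosts were farther apart, at 78.9 and 68.3%.

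The regions with the most lower CpGs at Div8pos lay in Zfp710, a zinc finger gene (13 CpGs), Rassf3 (12), Map3k1, a kinase upstream of the MAP kinases (11), and Runx3, a runt transcription factor of lymphocytes (11). Regions in Camk2a and in Trf, the transferrin gene, shared the fifth place with 10 each. The Runx3 region (chromosome 4, 134711413 to 134712105, 3.31 kb from a start site) stood at 88.0, 88.2, 87.1, 83.2, 56.7 and 35.9% over the 6 fractions in host 196. In host 197 it stood at 91.3, 89.2, 88.4, 78.0, 48.9 and 33.7%. The larger part of the step came between Div5 and Div8neg in both hosts. The Map3k1 region (chromosome 13, 112593352 to 112593714) instead stayed near its Div0 mean of 77.3% at Div8neg, with 70.3%, and stood at 52.1 and 46.4% in the Div8pos libraries.

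At Div8neg the region with the most lower CpGs was that of Rassf3 (10), and regions in Uggt1, Tfcp2, Camk2a, Runx3 and Zfp710 followed with 9 each. Uggt1 encodes the enzyme that checks glycoprotein folding in the endoplasmic reticulum. Its region (chromosome 1, 36298914 to 36299198, 2.12 kb from a start site) stood at 79.6 and 67.2% in the Div0 libraries of hosts 196 and 197, at 60.2 and 59.2% in Div5, at 36.9 and 41.9% in Div8neg, and at 19.03 and 11.9% in Div8pos. Tfcp2, a CP2-family transcription factor, went from a mean of 61.6% at Div0 to 17.2% at Div8neg and 12.6% at Div8pos (chromosome 15, 100374253 to 100374400). Most of the Tfcp2 difference thus already stood in the CD138- fraction.

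Among the regions ranked, that of AI506816 differed between the animals. In this region (chromosome 5, 23212739 to 23213148), whose 9 members were all lower at Div8pos by the test, host 197 stood at 92.4% at Div0 and 48.6% at Div8pos. Host 196 stood at 98.5 and 89.5%. Host 197 was also the lower at Div5, with 65.2% in host 197 and 93.7% in host 196. The call rested on host 197, the deeper of the hosts.

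Between Div8neg and Div8pos, 96 regions were lower in Div8pos, and the 20 higher CpGs formed no region. Trf led with 11 CpGs (chromosome 9, 103115172 to 103115354). Its levels were 86.0, 95.1, 79.1 and 50.0% at Div0, Div5, Div8neg and Div8pos in host 196 and 89.5, 90.5, 81.0 and 53.7% in host 197. St3gal2, a sialyltransferase gene, followed with 7 CpGs and stood at a mean of 49.8% at Div8neg and 13.7% at Div8pos. Regions of 6 CpGs lay in Uggt1, in Chst11, a chondroitin sulfotransferase gene, in Ttc7b and in an intron without a symbol on chromosome 3.

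Among regions of 5 CpGs lower in Div8pos than in Div8neg, 3 were chosen for display after their values were seen. Gpatch2 (chromosome 1, 189102905 to 189103306) stood at 91.3 and 95.1% in the Div0 libraries, at 94.9 and 88.6% in the Div8neg libraries, and at 43.3 and 39.0% in the Div8pos libraries. Vwa8 (chromosome 14, 79435399 to 79435680) stood at 91.6 and 97.99%, at 88.1 and 86.8% and at 32.3 and 41.8% in the same fractions. Pik3ap1, an adaptor that links the B cell receptor to phosphoinositide 3-kinase, was already lower in Div8neg, with 87.2 and 83.2% in Div0, 60.8 and 60.5% in Div8neg and 22.4 and 24.6% in Div8pos. In all 3 genes the Div8pos libraries lay below all others without overlap.

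Gains were few. The 127 members higher at Div8neg averaged 10.6, 16.02, 19.4, 20.7, 37.6 and 18.3% over the 6 fractions, so they were nearer their Div5 level again in Div8pos. Without the Div0 and without the Div8neg library of host 197, 12 and 33 were higher. Of the 127, 72 lay over 20 kb from a start site, where 0.0865% of members were higher, against 0.0549% of all members. The 127 formed 3 regions, in Ttc7b, in Kit, the receptor of stem cell factor, and in Sorl1, a sorting receptor. The Kit region of 3 CpGs (chromosome 5, 76000700 to 76000844) stood at 1.08 and 1.20% in the Div0 libraries of hosts 196 and 197, 5.75 and 5.80% in Div5, 26.7 and 34.3% in Div8neg and 7.84 and 3.64% in Div8pos. The Sorl1 region differed in course, with means of 33.4, 58.7, 66.2 and 49.9% in Div0, Div5, Div8neg and Div8pos. Members under 20% and over 20 kb from a start site also differed from Div0 by 2.14 points at Div8neg (SD 0.944) and by -0.704 at Div8pos (SD 0.210).

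Markers of cell identity were read in the same libraries. Among B cell promoters, that of Pax5 was at 0% at Div0 and 3.198% at Div8neg, and that of Cd22 was at 26.9 and 25.1%. Intronic CpGs of Cd79b, part of the B cell receptor, had 3.85% at Div0, 7.53% at Div8neg and 2.10% at Div8pos. The T cell and myeloid promoters Cd3e and Itgam were at 97.2 and 96.0% at Div0 and at 91.7 and 84.3% at Div8neg. The part of other cell types in the gains at Div8neg was not tested.

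Higher members at Div8pos numbered 69, or 14 without the Div0 library of host 197, and averaged 28.1% at Div0, 46.7% at Div5 and 54.4% at Div8pos. Their 3 regions lay in Clcf1, a cytokine gene, in Nfatc2, a calcium-regulated transcription factor, and in Vps37b, a subunit of the ESCRT-I sorting complex. The Vps37b region of 5 CpGs (chromosome 5, 124461224 to 124461700) stood at 3.86 and 4.72% at Div0, 20.8 and 23.7% at Div8neg and 32.5 and 22.2% at Div8pos. The Nfatc2 region of 3 CpGs was already at 75.2% at Div5 against 48.3% at Div0.

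Levels were then averaged over the intronic CpGs of each gene with at least 5 of them, and tested with limma together with the promoter, exon and untranslated units of all genes. Of 9657 intron units, 2518 were lower at Div8pos by at least 10 points (26.1%), where 13.3% of all units were lower, and 1 was higher. At Div8neg 290 were lower, where 1.78% of all units were lower, and 2 were higher. In Div8pos against Div8neg 381 were lower, where 2.33% of all units were lower, and 1 was higher. Exon units gave 9.71% lower at Div8pos and promoter units 4.70%. These shares include units too low at Div0 to fall by 10 points. Mean Div0 levels over CpGs were 15.8% in promoters, 52.1% in exons and 64.1% in introns. Among single CpGs high enough at Div0 to be called lower, the shares at Div8pos were 12.97% in promoters, 5.66% in exons and 12.3% in introns. Whether intron units exceed promoter units at the same starting level was not tested. The median intron unit differed by -7.04 points at Div8pos and by -3.12 at Div8neg.

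Tubb1, a beta-tubulin of platelets, and C1qbp, a mitochondrial matrix protein, had the largest intron differences at Div8pos. The 8 intronic CpGs of Tubb1 (chromosome 2, 174279473 to 174279729) stood at 87.6 and 84.7% at Div0, 59.9 and 54.6% at Div8neg and 30.1 and 32.4% at Div8pos. They fell by 54.9 points from Div0 to Div8pos (SE 2.21, limma adjusted p = 1.44e-06). The 7 of C1qbp (chromosome 11, 70794199 to 70794637) stood at 97.2 and 93.8% at Div0, 78.1 and 71.9% at Div8neg and 37.6 and 45.4% at Div8pos. They fell by 54.0 points (SE 2.60, limma adjusted p = 2.56e-06).

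The next by size fell by 44.0 to 36.8 points. Mettl21a is a protein lysine methyltransferase, Psap the precursor of the saposins of the lysosome, Cox17 a mitochondrial copper chaperone, and Rab30 a Rab GTPase of the Golgi. Crybb1 encodes a lens crystallin, Ralgps2 an exchange factor of Ral GTPases, Pik3ip1 an inhibitor of phosphoinositide 3-kinase, and Rasgrp1 a Ras exchange factor of lymphocytes. Psap went lowest, from 49.6 and 43.2% at Div0 to 6.09 and 2.92% at Div8pos. These units were chosen for their difference, and in all 10 the Div8pos libraries lay below the Div0 libraries.

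At Div8neg, Rab30 fell most, by 30.9 points (SE 2.83, limma adjusted p = 0.000556). Ugcg, which makes glucosylceramide, fell by 28.8 points, and its levels of 48.5 and 49.8% at Div8neg were close to the 43.9 and 49.7% at Div8pos. Cd83, a marker of activated B cells and dendritic cells, fell by 24.97. D030056L22Rik, Gm14005, Tfcp2, Tubb1, Pik3ip1, Mettl21a and Psap were the others of the 10. Gm14005 fell by 25.8 points over 32 CpGs, the largest number of CpGs among them.

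In Div8pos against Div8neg, C1qbp fell by 33.5 points (SE 2.60, limma adjusted p = 0.000250) and Tubb1 by 26.1. Klhl42, Tm4sf19, Gpnmb, Kcnn4, Ptpn22, Leprot, Rasgrp1 and Ptpn5 followed, with values from 24.2 down to 20.9 points. Kcnn4, a calcium-activated potassium channel, had the smallest error. Its 15 CpGs stood at 67.7 and 69.2% in Div8neg and at 45.7 and 46.6% in Div8pos (SE 0.785).

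Intron units that rose were Clcf1 at Div8pos, by 11.4 points (SE 2.63, limma adjusted p = 0.00561), Clcf1 and the mitotic checkpoint gene Bub1b at Div8neg, by 12.7 and 10.9, and AI427809 in Div8pos against Div8neg, by 16.1. Among all units, 0.0221, 0.0701 and 0.0295% were higher in these 3 comparisons. The counts of 1, 2 and 1 rested on single libraries. At Div8pos 0 units were higher without the Div8pos library of host 196 and 2 without the Div0 library of host 197, and at Div8neg 0 were higher without the Div8neg library of host 196. In Div8pos against Div8neg 3 and 4 were higher without the Div8neg libraries of hosts 196 and 197, and 0 without the Div8pos library of host 197.

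Some genes held many single lower CpGs, and those named here were chosen after their counts were seen. Foxp1, a forkhead factor of B cells, had 45 lower CpGs of 144 at Div8pos, and its unit stood at 81.7 and 81.2% at Div0, 71.0 and 71.6% at Div8neg and 62.9 and 62.2% at Div8pos. Wwox had 37 of 467, Nav2 29 of 223, Hivep3 28 of 124 and Pax5 28 of 146. Pvt1 had 24 of 56, and its intron mean went from 88.8 to 58.1%. Among all members 8.60% were lower at Div8pos. The share in Wwox was under that and far smaller than in Pvt1, so the number of covered CpGs entered these counts.

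Gene lists chosen for the tissue are described by counts. Of the genes with an intronic CpG, 17.6% held at least 3 lower members at Div8pos. In the list of B cell identity genes, 11 of 20 intron units were lower at Div8pos by limma, beside 26.1% of all intron units, and 19.3% of 782 CpGs were lower, beside 8.60% of all members. Blk, a Src-family kinase of B cells, fell by 27.1 points (SE 2.28), from 88.1 and 87.5% at Div0 to 63.3 and 58.1% at Div8pos. Fcrla fell by 23.2, Pou2f2, which encodes Oct-2, by 19.7, Ciita, the regulator of MHC class II genes, by 16.4, and Cd22 by 14.9. Ebf1, Blnk, Ikzf3, Bank1, Foxo1 and Ets1 were the other 6. Pax5, the B lineage factor, did not reach 10 points, with a difference of -9.54 (SE 0.663). Bach2, at -7.78, and Irf8, at -7.05, also held 3 or more lower CpGs, as did Ms4a1, the gene of CD20, with too few CpGs for a unit.

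Among B cell receptor signalling genes, 11 of 22 units were lower at Div8pos, beside 26.1% of all intron units, and 15.4% of 848 CpGs were lower, beside 8.60% of all members. Rasgrp3, a Ras exchange factor, fell by 29.7 points, the kinase Lyn by 21.3 and the kinase Syk by 19.9. All 3 were also lower at Div8neg, by 18.8, 12.4 and 12.6. Pik3ap1, Vav2, Nfatc1, Prkcb, Vav1, Pik3cd and Pik3r1 were among the other units lower at Div8pos. Inpp5d, Nfatc2 and Plcg2 were among the genes that had 3 or more lower CpGs without a lower unit.

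Of the runt, forkhead and ETS factors of lymphocytes, 6 of 13 units were lower at Div8pos, beside 26.1% of all intron units. They were Foxp1 by 18.9, Runx3 by 18.3, Etv6 by 12.8, Foxo1 by 11.4, Ets1 by 10.2 and Foxo3 by 10.1 points. Foxp1 and Runx3 were lower at Div8neg too, by 10.2 and 11.1. Runx1, Runx2, Fli1 and Erg held 3 or more lower CpGs without a lower unit. Runx1 differed by -7.45 and Runx2 by -5.16 points.

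Of the plasma cell genes, 5 of 19 units were lower at Div8pos and 10.3% of 406 CpGs, near the 26.1% of all intron units and the 8.60% of all members. The median unit, -4.72 points, was nearer 0 than the -7.04 over all intron units. Tnfrsf13b, which encodes the receptor TACI, fell by 27.9 points (SE 1.57), from 77.3 and 77.9% at Div0 to 50.1 and 49.4% at Div8pos, with 57.7 and 53.0% already at Div8neg. Txndc5, an endoplasmic reticulum disulfide isomerase, fell by 18.9, Zbtb20 by 16.5, Cd28 by 14.9 and Atf6, a sensor of unfolded proteins, by 11.9. Prdm1, the gene of the plasma cell regulator Blimp-1, did not reach the limit, with -7.22 points (SE 0.958) over 26 CpGs. The introns of Xbp1 had 2.93 and 1.06% at Div0 and had no methylation to lose.

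In the Toll-like receptor and NF-kB list, 4 of 18 units were lower at Div8pos, a share under the 26.1% of all intron units, and the median unit was -6.49 points. Of its 291 CpGs, however, 11.7% were lower, above the 8.60% of all members. Ly86, a partner of the LPS-sensing Cd180, fell by 23.7 points, Nfkbid by 12.6, Irak3 by 11.7 and Irak2 by 11.1. Nfkb1 and Traf3 held 3 or more lower CpGs at -9.80 and -8.77 points, and Nfkbie and Nfkbiz held 3 or more without enough CpGs for a unit. In the DNA methylation list, 9.31% of 290 CpGs were lower, beside the same 8.60%. Of its 17 units, 6 were lower, beside the same 26.1%. They were Zbtb38, by 13.6, Tet2, by 10.7, Mbd1, by 10.5, Dnmt1 and Tet1, by 10.5 each, and Tet3, by 10.4. Dnmt3a held 5 lower CpGs at -8.89 points, and Apobec1 held 3 without a unit. The median unit of the list, -7.02 points, was close to the -7.04 over all intron units.

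Marker genes of other lineages were among the lower units too. Of 11 T cell units, 3 were lower at Div8pos (Cd2, Cd28 and Zap70), near the 26.1% of all intron units. Of the 308 T cell CpGs, 5.19% were lower, under the 8.60% of all members. Among myeloid, NK cell and erythroid genes, Fcgr3, Tbx21 and Slc4a1 were lower, and Tbx21 was lower at Div8neg too. That made 1 of 3, 1 of 2 and 1 of 3 units, too few to set against the 26.1%. In these lists 15.4% of 65, 13.3% of 30 and 4.72% of 106 CpGs were lower at Div8pos, beside the same 8.60%. Bcl11b, Mrc1 and Ank1 held 3 or more lower CpGs. The median unit was -10.8 points in the B cell identity list, -9.60 in the B cell receptor list and -5.68 in the T cell list, beside -7.04 over all intron units.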

How the data were processed

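Libraries were made by digestion with MspI and TaqI, bisulfite conversion and PCR, per the labels' protocols, and the submitters' processing notes name Bismark, Bowtie2 and the mm9 build. The sources used here give no aligner version. The authors deposited methylated and unmethylated read counts per CpG and library, with strands joined per the deposited file description, and the methylation level as a fraction per the file headers. PCR reads without molecular identifiers are not independent molecules. Intron, promoter and start-site annotations are the authors', in mm9. Gene symbols came from the gene identifiers and symbols the file pairs: 3996 members had no symbol, and 3253 with several intron identifiers were left out of gene units.

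The quasi-binomial model used all 12 libraries with the fraction as its term. Its dispersion was moderated with squeezeVar of limma 3.58.1, which gave 1.16 times binomial variation for every CpG. The 1192 CpGs read 150 times or more (median over libraries) had a median dispersion of their own of 1.40, above the value used. Residual degrees of freedom were counted over fractions with a level other than 0 or 1. The plan had been to count all fractions, with this count as the alternative. The roles were exchanged after simulated data had shown a dispersion biased low under the plan, and after the counts of these data under both had been seen; the planned count gives fewer calls, which are printed beside the others. On simulated data with 1 dispersion for all CpGs, for Div8pos against Div0, over 50000 CpGs, 60% of drops of 30 points and 100% of drops of 50 points were recovered. Limma on 27117 simulated units recovered 96.5% of 200 changed units.

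The same host number marks the same animal per the labels. Over 157800 CpGs, deviations of hosts from fraction means correlated between fractions at -0.00777 to 0.0104 over 15 comparisons of fractions. The members, lists and limits were chosen with earlier results of these data known. Named genes are the 10 intron units and 5 regions with the largest values among those that passed (units also with the same direction in both hosts), in each direction of the comparisons of Div8pos and of Div8neg with Div0 and with each other, and list members with a unit that passed or with 3 or more called CpGs. Regions for Div5 were added by the same ranking, and those shown for it were picked after their values were seen. Alternatives were the coverage minimum, size limits, dispersion, host block, single libraries left out, class and distance limits, units of more CpGs, the logit scale, any CpG with an intron and, added after the data were seen, members away from start sites. The deposited table of group means was not used here, and a few genes of the lists are not reported here.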

Additional observations from a re-analysis of the deposited data

How the results depend on the processing

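Calls of single CpGs depended on how the spread was estimated and on depth, with the cause not tested. With the dispersion of each CpG alone, 0 were lower and 0 higher in every comparison. With degrees of freedom counted over all fractions, as first planned, lower and higher counts were 22 and 0 at Div3, 223 and 1 at Div5, 1023 and 32 at Div8neg, and 496 and 2 between Div8pos and Div8neg, with 44 higher at Div8pos. With a coverage minimum of 20 reads (71726 members) 51 were lower at Div3 and 212 at Div5, and lower and higher counts were 999 and 61 at Div8neg, 4859 and 26 at Div8pos, and 869 and 11 between Div8pos and Div8neg, while hosts 196 and 197 alone chose 1400 and 5215. A size limit of 10 points gave 4112 and 226 at Div8neg, 43397 and 189 at Div8pos, and 33 higher between Div8pos and Div8neg.

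Leaving out 1 library at a time gave 0 to 1 higher CpGs at Div1, 20 to 76 lower and 0 to 5 higher at Div3, 130 to 468 and 0 to 17 at Div5, 500 to 2387 and 12 to 111 at Div8neg, 6093 to 20647 and 14 to 68 at Div8pos, and 365 to 1711 and 3 to 25 between Div8pos and Div8neg. Higher intron units ranged from 0 to 2 at Div8neg, 0 to 2 at Div8pos and 0 to 4 between Div8pos and Div8neg.

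The mean difference from Div0 over Div1, Div3, Div5, Div8neg and Div8pos was -2.33, -2.56, -2.23, -6.09 and -9.15 points from summed reads and -0.182, -0.311, -0.827, -3.04 and -6.39 with the coverage minimum of 20. Over Div5, Div8neg and Div8pos it was -0.894, -3.14 and -6.68 for any CpG with an intron, and -1.13, -4.14 and -8.69 without members at a start site, an alternative added after the data were seen. With the starting class from the mean of both hosts, the differences at Div8pos were -0.225 points (under 20%) and -11.1 (20 to 80%). Class limits of 10 and 90% gave -0.303, -11.4 and -9.63, and members over 50 kb in place of 20 kb gave -9.52.

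Intron units of at least 10 CpGs gave 118 lower at Div8neg, 1542 at Div8pos and 129 between Div8pos and Div8neg, with 0 higher in each. A size limit of 5 points gave lower and higher counts of 2014 and 11, 6169 and 2, and 2823 and 6. On the logit scale 1 was higher at Div8neg, and 249 were lower and 0 higher between Div8pos and Div8neg. In the paired fit with the host as a replicate block, 19525 CpGs and 2519 intron units were lower at Div8pos, and no count moved by over 1.5 times. Of the recomputed counts and means, 153 kept to a set limit and 100 did not. The limit was 1.5 times the main count or, for a mean, the same sign and a shift under the SD between hosts. For single genes and regions, 3076 values kept their side of the threshold or, for regions, the limit for means. In 137 cases a gene passed only under the alternative, in 41 it no longer passed, and in none did a called sign change.

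Each fraction has 2 libraries. Calls of single CpGs rest on a spread shared over CpGs, without which none passed the adjustment over all CpGs. At a median of 20 reads in the shallowest Div0 library, small differences at single CpGs were not detectable.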
